A study of Drosophila melanogaster with 6 samples.

Results

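Peptide hormones of the gut and brain were followed in whole larvae of Drosophila melanogaster whose mothers had eaten control or high-sucrose food. The 8 genes considered were NPF, Dh31, Tk, AstA, AstC, Mip, CCHa1 and CCHa2, chosen as precursor genes of peptides made in enteroendocrine cells of the midgut, in neurons, or in both. A gene was measured where a probe set of the array carried its symbol and no other. This held for 6 of the 8, each with 1 probe set, among 11982 genes with a probe set of their own. Tk, the tachykinin precursor, and AstA, the allatostatin A precursor, were not analysed here.

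Enteroendocrine cells are scattered hormone-secreting cells of the gut epithelium. They sense food in the gut lumen and release peptides that act on gut muscle, on neighbouring epithelial cells or, through the blood, on distant organs. Most of these peptides are also used by neurons as transmitters. Such peptides are cut from longer precursors by prohormone convertases, stored in dense-core vesicles and sensed by G protein-coupled receptors on their target cells. Many, though not allatostatin C, are also amidated at their end.

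Females of the white-eyed laboratory strain w1118 were kept as virgins for 7 days from soon after eclosion on food holding sucrose at 0.15 M (control) or at 1 M (high sucrose), and then mated to w1118 males on control food. All offspring of both groups were laid and raised on control food at 25 C, and whole male larvae of the third larval instar were collected. Each maternal diet had 3 arrays, numbered as biological replicates, and by the labels the groups differ in the diet of the mother and not in that of the larva. The titles and descriptions name wandering larvae, and the source and characteristics name mid-stage ones. The titles could also be read as giving the diet of the larvae, whereas the characteristics and design text give it as that of the mothers, which is followed here.

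Values are linear intensities, given as mean ± SD with n = 3 arrays for each group. Intensities of different probe sets do not rank genes by RNA level, so each gene was compared only with itself across arrays. Array medians lay between 51.5 and 55.7 and lower quartiles between 12.2 and 14.6. As a check of the tissue, the neuronal RNA-binding protein gene elav was at 260.6 to 344.8 and the midgut gene mex1 at 1017 to 1407 over all 6 arrays. Of 11 neuron markers measured, elav was the brightest, and 5 were under the array median in all 6 arrays. Among those 5, nSyb and VGlut, both of the synaptic vesicle, were under the lower quartile in 5 of 6 arrays each. In whole larvae, fewer cells of a type and less RNA per cell cannot be told apart.

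None of the 6 peptide hormone genes passed as higher or as lower in larvae from high-sucrose mothers. The call required an adjusted p of at most 0.05, from limma on log2(intensity + 16) with Benjamini-Hochberg adjustment over all 18769 tested probe sets. Over all of those probe sets, 10 were called higher and 107 lower, which is 0.623%. Those counts depended on single arrays: they became 2 and 11 when control array 2 was dropped, 3 and 28 for control array 3. They became 3 and 39 without high-sucrose array 1, and 5 and 30 without high-sucrose array 3. Without control array 1 they were 7 and 94, and without high-sucrose array 2 they were 9 and 154. Each of those fits also had fewer arrays. At an unadjusted p under 0.05, 1 member lay higher (CCHa1) and 1 lower (Dh31), against 673 and 1652 of all probe sets. The members' log2 differences ran from -0.35 to 0.37 with 2 above 0 and 4 below, and their median was -0.071, beside -0.034 over all 18769 tested probe sets, of which 7709 lay above 0 and 11060 below. In 1 of the 6 the arrays of both groups did not overlap, and 18.5% of all tested probe sets showed that.

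**Figure D1:**
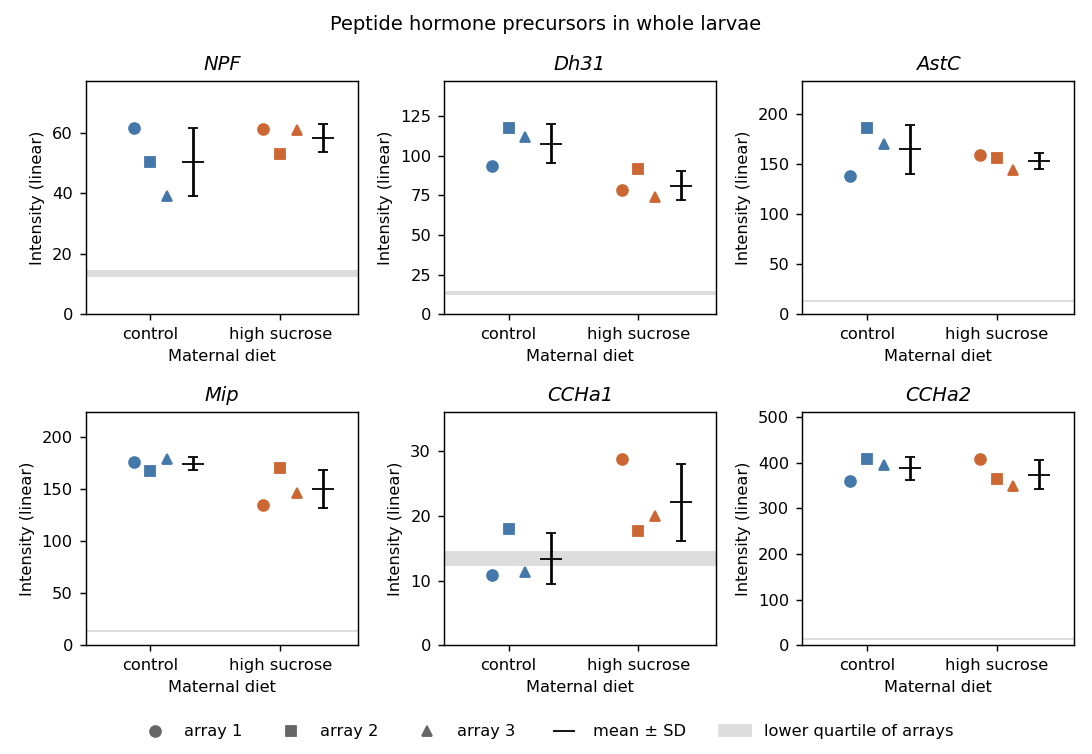
Linear intensity (vertical axis, from 0, a scale for each gene) of the 6 measured peptide hormone genes by maternal diet (horizontal axis), with 1 point for each array, the mean ± SD beside them, and a grey band for the lower quartiles of the 6 arrays. The Dh31 arrays do not overlap between diets, those of the other 5 genes do, and CCHa1 lies around the grey band.

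Dh31 encodes a diuretic hormone related to vertebrate calcitonin, which acts on fluid secretion by the Malpighian tubules and on gut contraction, and which is made in enteroendocrine cells and in neurons. Its probe set (1630467_a_at) was at 93.7, 117.6 and 111.6 in the control arrays and at 78.3, 91.5 and 73.6 in the high-sucrose arrays. All 3 high-sucrose arrays thus lay below all 3 control arrays, and the gap between the nearest arrays, 91.5 and 93.7, was small. The means were 107.6 ± 12.4 and 81.2 ± 9.28, a ratio of 0.754. The log2 difference was -0.35 ± 0.11 (SE), with a 95% interval from -0.60 to -0.091, unadjusted p = 0.0134 and adjusted p = 0.255 by limma. Among all probe sets its p had rank 991. The interval excludes 0 for this gene taken by itself, but the difference did not pass over all probe sets.

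Mip encodes the myoinhibitory peptides, also called allatostatin B, which slow muscle contraction and act through the sex peptide receptor. Its probe set (1638305_at) was at 176.4, 167.8 and 179.6 in the control arrays and at 134.6, 170.4 and 146.1 in the high-sucrose arrays. The second high-sucrose array lay inside the control range and the other two below it. The spread was wider in the high-sucrose group, with a coefficient of variation of 12.2% against 3.51%. The means were 174.6 ± 6.12 and 150.4 ± 18.3, and the log2 difference was -0.20 ± 0.093 (SE; 95% interval -0.41 to 0.0088; adjusted p = 0.425 by limma).

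AstC encodes allatostatin C, a relative of vertebrate somatostatin and an inhibitory peptide of the gut and brain. Its probe set (1634436_at) was at 138.6, 186.6 and 169.9 in the control arrays and at 159.6, 156.5 and 144.2 in the high-sucrose arrays. All high-sucrose arrays lay inside the control range. The means were 165.1 ± 24.3 and 153.4 ± 8.15, with a log2 difference of -0.088 ± 0.11 (SE; 95% interval -0.33 to 0.15; adjusted p = 0.786 by limma).

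NPF encodes neuropeptide F, the relative of vertebrate neuropeptide Y, made in midgut cells and in a few brain neurons and known for its part in feeding. Its probe set (1629703_at) was at 61.6, 50.2 and 39.1 in the control arrays and at 61.1, 53.0 and 60.8 in the high-sucrose arrays. The highest of the 6 values was a control array, and all high-sucrose arrays lay inside the control range. The means were 50.3 ± 11.3 and 58.3 ± 4.59, and the log2 difference was 0.18 ± 0.14 (SE; 95% interval -0.14 to 0.496; adjusted p = 0.656 by limma). NPF lay close to the median of the arrays, under it in 3 of 6, and under the brightest eggshell gene in 1 of 6.

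The genes CCHa1 and CCHa2 encode a pair of related short peptides with a ring closed by a disulfide bond, each with a receptor of its own. CCHa2 is made in gut and fat body, responds to nutrition, and acts on the insulin-producing cells of the brain. Its probe set (1634960_at) was at 360.2, 409.2 and 396.5 in the control arrays and at 409.7, 363.7 and 348.9 in the high-sucrose arrays. The groups overlapped almost wholly. The means were 388.6 ± 25.5 and 374.1 ± 31.7, and the log2 difference was -0.054 ± 0.078 (SE; adjusted p = 0.827 by limma). The 95% interval, from -0.23 to 0.12, corresponds to a ratio between 0.852 and 1.09 on the scale of intensity + 16, the narrowest interval of the 6 members.

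CCHa1, a peptide of enteroendocrine cells and neurons, was the dimmest member. Its probe set (1629448_at) was at 10.9, 17.99 and 11.3 in the control arrays and at 28.9, 17.6 and 19.9 in the high-sucrose arrays. The second control array lay above the second high-sucrose array, so the groups overlapped. The means were 13.4 ± 3.98 and 22.2 ± 5.96, a log2 difference of 0.37 ± 0.16 (SE; 95% interval 0.013 to 0.73; unadjusted p = 0.0437, adjusted p = 0.385 by limma).

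CCHa1 was the member nearest to background. The files hold no detection call, so near background was defined as an intensity under the lower quartile of all tested probe sets in all 6 arrays, and 0 of the 6 members met that. CCHa1 was under the lower quartile in 2 arrays, the first and the third control array, and under the median in all 6. As a second gauge, 12 eggshell genes, which are active in the ovary of adult females, had a median between 8.21 and 17.1 and a highest value between 34.9 and 56.7 on an array. CCHa1 was under that highest value in all 6 arrays. The other 5 members lay above the lower quartile in every array, and Dh31, AstC, Mip and CCHa2 also above the median and the highest eggshell gene in every array.

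**Figure D2:**
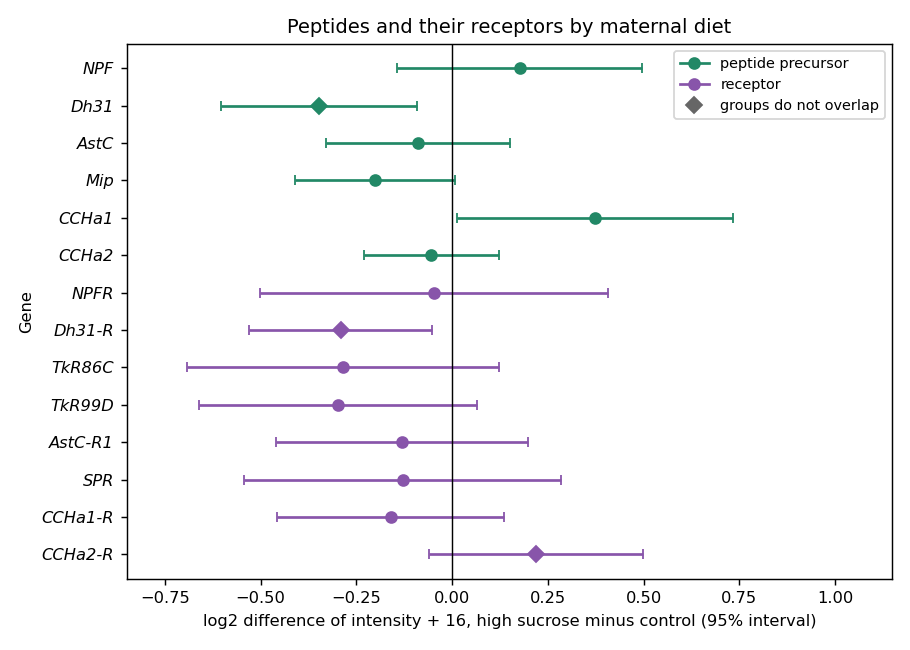
Log2 difference of intensity + 16, high-sucrose minus control (horizontal axis), with its 95% interval, for the 6 peptide genes and 8 receptor genes (vertical axis); diamonds mark genes whose groups do not overlap. The intervals of Dh31 and Dh31-R end below 0 and that of CCHa1 starts above it, and no gene passed the adjusted threshold.

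Of 11 receptor genes listed for the 8 peptides, 8 were measured, 0 were called in either direction, and the median log2 difference was -0.15, with 7 below 0 and 1 above, beside 11060 below and 7709 above among all tested probe sets. Most were dim: 6 of the 8 lay under the array median in all 6 arrays. Dh31-R, the receptor of Dh31, was at 53.9, 60.6 and 57.9 in the control arrays and at 42.7, 46.0 and 43.4 in the high-sucrose arrays. All 3 high-sucrose arrays lay below all controls, and the log2 difference was -0.29 ± 0.11 (SE; 95% interval -0.53 to -0.052; unadjusted p = 0.0223, adjusted p = 0.299 by limma). This probe set lay under the brightest eggshell gene in the first control and the third high-sucrose array. By their brightest probe sets, 2 of the 8 receptors, Dh31-R and CCHa2-R, had groups that did not overlap, beside 18.5% of all tested probe sets. A second, dimmer probe set of Dh31-R had means of 13.4 and 9.76, overlapping groups and an adjusted p of 0.716 by limma.

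The other receptors were at or below 66.0 in every array. NPFR, the receptor of NPF, ranged from 36.7 to 61.2 with control mothers and from 34.8 to 66.0 with high-sucrose mothers (log2 difference -0.048; adjusted p = 0.95 by limma). TkR86C and TkR99D, receptors of the tachykinin family, had log2 differences of -0.28 and -0.298 with adjusted p = 0.561 and 0.49. AstC-R1, a receptor of allatostatin C, had a log2 difference of -0.13 (adjusted p = 0.767 by limma). SPR, the receptor shared by sex peptide and the Mip peptides, also had -0.13 (adjusted p = 0.8235 by limma). It lay under the lower quartile in 4 of 6 arrays. A second, dimmer probe set of SPR had means of 8.43 and 4.13, groups that did not overlap and an adjusted p of 0.485 by limma. CCHa1-R stayed between 1.44 and 7.32, under the lower quartile of every array. CCHa2-R, through which CCHa2 reaches the insulin-producing cells, ranged from 7.24 to 9.09 with control mothers and from 10.5 to 14.8 with high-sucrose mothers. Its groups did not overlap, but it lay under the lower quartile in 5 of 6 arrays and did not pass (log2 difference 0.22; adjusted p = 0.512 by limma).

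Genes that make, release or degrade these peptides were measured for comparison, and 0 were called. Of 10 genes of processing and release the median log2 difference was -0.016, which changed sign under the 3 other scalings (0.011 to 0.025). IA-2, a membrane protein of dense-core vesicles, ranged from 361.7 to 451.1 with control mothers and from 432.1 to 477 with high-sucrose mothers (log2 difference 0.19; adjusted p = 0.426 by limma). The dimmer probe sets of IA-2 had log2 differences of 0.036 and -0.047 (adjusted p = 0.933 and 0.941 by limma). Pal1 and Pal2, enzymes of the last step of amidation, had log2 differences of -0.14 and -0.13 with adjusted p = 0.586 and 0.615. Among 5 neprilysin genes, whose enzymes cleave peptides outside cells, the median was -0.026, and it changed sign under quantile scaling and median centring. Nep4 was at 48.9, 33.6 and 60.4 in control and 51.3, 105.6 and 64.7 in high-sucrose arrays, where the second high-sucrose array stood above the rest (log2 difference 0.47; adjusted p = 0.44 by limma). Nep2 and Nep3 had log2 differences of -0.079 and 0.042 (adjusted p = 0.781 and 0.92 by limma).

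Of 33 other peptide hormone genes listed, 28 were measured and 0 were called, with a median log2 difference of -0.057. At an unadjusted p under 0.05 by limma, 1 of the 28 lay higher and 2 lower, beside 673 higher and 1652 lower of all 18769 tested probe sets. Under the median in all arrays lay 17 of the 28. Akh, which encodes adipokinetic hormone, the counterpart of glucagon, was the higher one, from 37.98 to 43.97 with control mothers and from 55.6 to 63.6 with high-sucrose mothers (log2 difference 0.43 ± 0.11, SE; adjusted p = 0.151 by limma). Proc, the precursor of proctolin, a peptide that acts on muscle, was at 16.1 to 19.9 and 8.16 to 11.4 (-0.44 ± 0.13; adjusted p = 0.191), with its high-sucrose values under the lower quartile of each array. Orcokinin, whose gene is active in enteroendocrine cells and neurons, was at 57.7 to 61.1 and 43.0 to 49.5 (-0.28 ± 0.11; adjusted p = 0.322). The groups did not overlap for any of these 3 genes, which were named for their small p, nor for Nplp4. These were 4 of the 28 measured, beside 18.5% of all tested probe sets.

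Regulators of enteroendocrine cells and markers of other tissues were set beside the peptides. Of 7 regulators 0 were called and the median log2 difference was 0.076. The gene pros, which marks enteroendocrine cells and is also used in neurons, was at 210.5, 270.4 and 231.8 in control and 238.1, 256.9 and 255.2 in high-sucrose arrays (log2 difference 0.076; adjusted p = 0.787 by limma; named after its value was seen). The transcription factor genes Poxn, sc and mirr had log2 differences of 0.27, -0.17 and 0.10 (adjusted p = 0.466, 0.62 and 0.672 by limma).

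Of 7 midgut markers 0 were called, 6 had a log2 difference below 0 (11060 of 18769 among all tested probe sets), and the median was -0.21 (-0.18 to -0.16 under the 3 other scalings). Their summed intensity ranged from 4279 to 4768 with control mothers and from 3849 to 4219 with high-sucrose mothers, without overlap. That sum is weighted toward its brightest genes, mex1 and Ssk, and does not describe each gene. Gene by gene, the groups did not overlap in 4 of the 7, beside 18.5% of all tested probe sets. They overlapped in Ssk, mesh and cad. In mex1 the log2 difference was -0.33 (adjusted p = 0.0727 by limma), in Tsp2A, of the gut septate junction, -0.33 (0.139). In GATAe, a transcription factor of the gut, it was -0.37 (0.186). The other markers differed less, with -0.21 in nub (0.343), -0.12 in Ssk (0.47), -0.099 in mesh (0.552) and 0.071 in cad (0.747). The 11 neuron markers had a median of -0.023, which changed sign under quantile scaling and median centring, and a summed intensity of 773.4 to 944.1 with control mothers and of 808.9 to 862.7 with high-sucrose mothers. The 4 fat body markers measured had a median of -0.083, which lay between -0.056 and 0.014 under the other scalings. On the deposited scale 0 of the 4 lay above 0, and 1 or 2 did so under the other scalings. Their summed intensity also did not overlap, from 34641 to 36681 with control mothers and from 33120 to 33876 with high-sucrose mothers. The sums of all 3 marker lists were taken on the deposited values without further scaling. On those values the upper end of the arrays also lay lower with high-sucrose mothers. The upper quartile of all tested probe sets was 212.8 to 216.3 with high-sucrose and 218.2 to 224.2 with control mothers. The highest value was 11771 to 12076 with high-sucrose and 12783 to 13046 with control mothers. The part of gut, neuron or fat body RNA in the values of Dh31 and the other members was not tested.

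**Figure D3:**
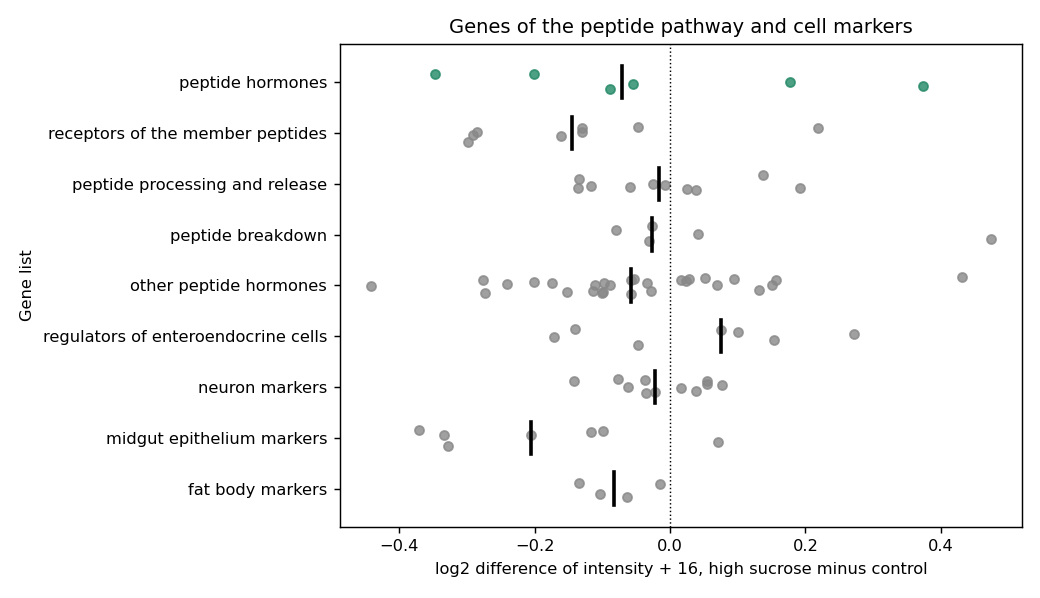
Log2 difference of intensity + 16, high-sucrose minus control (horizontal axis), for each measured gene (points) of 9 lists (vertical axis), with the list's median as a bar. The peptide hormones spread on both sides of 0 from -0.35 to 0.37, and 6 of 7 midgut markers lie below 0.

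For each member, the gene with the nearest profile was looked up among 8289 probe sets of other single genes with a mean above the median. Likeness was the root mean square difference of the centred log2 values over the 6 arrays. The nearest profile was that of Nepl10, a neprilysin-like gene, for Dh31 (0.0308), of spok, an enzyme gene of ecdysone synthesis, for AstC (0.0251) and of Had1 for Mip (0.0247). It was that of CG9269 for CCHa2 (0.0197), of ced-6, an adaptor of engulfment, for NPF (0.0516), and of br, an ecdysone-response transcription factor, for CCHa1 (0.102). Nepl10 was at 206.1, 240.9 and 236.7 in control and 162.8, 192.3 and 159.1 in high-sucrose arrays, with the order of the arrays within each group as in Dh31 (log2 difference -0.38; adjusted p = 0.133 by limma). With 6 arrays and so many candidates, a close match is a description only.

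The members' log2 differences kept their sign in all 95 values from 16 alternative settings, and none was called. The filters by mean, the replicate block and the fit without trend cannot test the sign. They left the difference of each gene kept as reported, -0.35 for Dh31, and could change only its p. The remaining settings reused the same arrays, so the 95 values are not independent. For Dh31 the differences ran from -0.43 to -0.24, with adjusted p from 0.147 to 0.547. CCHa1, the dim member, moved most with the pseudocount, from 0.15 with 64 to 0.69 with 1. NPF moved most with a single array, to 0.05 without the third control array, and AstC came to -0.0024 without the second control array.

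**Figure D4:**
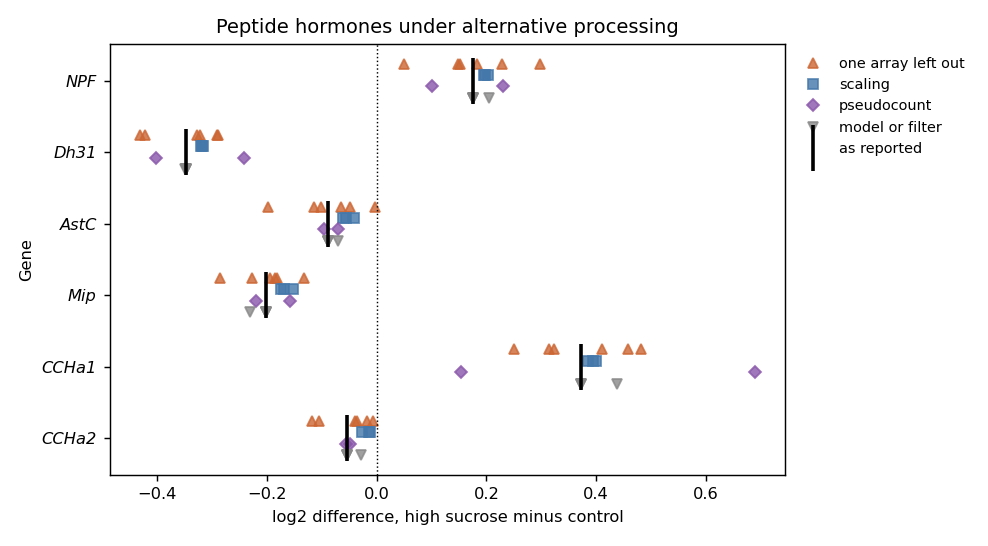
Log2 difference, high-sucrose minus control (horizontal axis), of each peptide hormone gene (vertical axis) as reported (bar) and under alternatives by kind (symbols). All points of a gene lie on its own side of 0, and CCHa1 spreads from 0.15 to 0.69.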

How the data were processed

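RNA of whole male larvae was measured on Affymetrix arrays, 3 for each maternal diet. Tripure extraction, DNase treatment and labelling as biotinylated cRNA are given per the labels' protocols. The values the authors deposited are linear intensities of 18952 probe sets. Background correction, summary and scaling were steps not given in the sources used here. Control probe sets, 183 in all, were left out. Genes were named from the platform's annotation table, in which 13647 of 18769 tested probe sets carry 1 symbol, 402 several and 4720 none; 0 symbols were updated through RefSeq gene IDs, and 103 IDs were unmatched. Panel genes with several probe sets were given by the brightest.

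Differences were tested across all probe sets on log2(intensity + 16) with limma 3.58.1 in R 4.3.3 (empirical Bayes with an intensity trend, residual degrees of freedom 4, prior 5.16) and Benjamini-Hochberg adjustment at 0.05. This scale understates changes of dim genes. The replicates' separate origin rests on their titles alone, and the number of arrays limits the precision.

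The members, panels and marker lists were chosen with earlier results of these data known. The genes named are all members, all measured receptors, in each panel the 3 genes of smallest p, and the nearest profile of each member. All measured midgut markers are named too, and the neuron markers named were chosen after their values were seen. Alternatives were 3 scalings, pseudocounts of 1 and 64, filters to the upper 70% and 50% by mean, a replicate block, no trend, array weights and each array left out.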

Additional observations from a re-analysis of the deposited data

How the results depend on the processing

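The number of peptide hormone genes called stayed at 0 in both directions in each of the 16 alternatives. Their median log2 difference stayed between -0.15 and -0.0098 in the 15 that kept all 6 genes. The filter to the upper 70%, the replicate block and the fit without trend could not move that median. CCHa1 was too dim for the filter to the upper 50%. Counts over all probe sets moved more. Those called higher numbered 17 under quantile scaling, 23 under median centring and 17 under cyclic loess. A replicate block left 4 higher and 59 lower, and Dh31 had an adjusted p of 0.324 by limma. Deviations of same-numbered arrays correlated at -0.072, 0.025 and -0.014, so no shared deviation was seen. This cannot show whether same-numbered arrays were handled together. Without the intensity trend 1 was higher and 3 lower. With 1 array left out, 2 to 9 were higher and 11 to 154 lower, the fewest without the second control array. Taking the highest eggshell gene or the array median as the limit of background put 1 member, CCHa1, near background in place of 0; for so dim a gene the size of a difference depends on the pseudocount. The cause of these shifts was not tested.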
